A study of Danio rerio with 8 samples.

Results

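The mRNA levels of slc10a1, acot17 and dao.1 were much lower in zebrafish embryos kept in the protease inhibitor E64d than in embryos kept in solvent alone, at 16.7% to 17.3% of the solvent level. They are 3 of the 36109 entries of the count table and 3 of the 22163 genes tested, and they were chosen by name as steep falls of metabolic genes of liver and yolk type in this same contrast. Their E64d and DMSO values are therefore given as a description, without a test. One of the 3, slc10a1, encodes a transporter, and 2 encode enzymes.

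The series holds 8 libraries of whole zebrafish embryos of the wild-type strain AB. In the E64d group, the medium held 3 µM E64d, which enters cells and blocks cysteine proteases such as cathepsins, and in the DMSO group it held the solvent dimethyl sulfoxide alone. DMSO was at 0.5% in both groups. In both groups the chorion was cut open, the medium contained PTU (an inhibitor of pigment formation), and exposure ran between 1 and 24 hours post-fertilization (hpf). Each group had 4 libraries, and each library came out of 7 pooled embryos, so errors describe pools and not single embryos. The study asked how blocking these proteases changes gene expression. The libraries held 29422983 to 37309883 counts. DMSO replicate 2 lay farthest out on the first principal component and had 0.847% mitochondrial counts, where the other libraries had 1.27% to 1.97%, so the values of the 3 genes are also given without it.

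The gene slc10a1 is the zebrafish counterpart of the mammalian sodium-taurocholate cotransporting polypeptide, the carrier that takes bile acids out of the blood into hepatocytes together with sodium. Bile acids and the bile alcohols of fish are made out of cholesterol in the liver. In mammals the side chains of bile acids are shortened in the peroxisome. Acyl-CoA thioesterases, the family of acot17, split acyl-CoA into a free fatty or bile acid and coenzyme A, and in mammals members of the family work in the cytosol, mitochondria and peroxisomes. The compartment of the acot17 product is not annotated in the sources used here. D-amino acid oxidase, the product of mammalian DAO and the enzyme after which dao.1 is named, is a peroxisomal flavoenzyme that oxidizes D-amino acids and glycine and releases hydrogen peroxide. In mammals it is known from liver, kidney and brain.

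slc10a1 was at 1.26, 1.96, 1.22 and 2.23 CPM in E64d replicates 1 to 4, against 11.3, 11.9, 8.57 and 8.22 CPM in DMSO replicates 1 to 4. CPM is the count scaled to a common library total. All 4 E64d libraries lay below all 4 DMSO libraries, and the lowest DMSO value was 3.68 times the highest E64d value. Behind these values stood 39 to 68 counts per E64d library and 270 to 408 per DMSO library. The means were 1.67 ± 0.506 CPM in E64d and 9.99 ± 1.87 CPM in DMSO (SD, n = 4 each), a log2 fold change of −2.58 ± 0.23 (SE). E64d embryos thus held 16.7% of the DMSO level.

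acot17 was at 1.00, 2.66, 6.57 and 4.33 CPM in E64d replicates 1 to 4, against 18.2, 26.96, 18.2 and 21.0 CPM in DMSO replicates 1 to 4. The E64d libraries were again all below the DMSO libraries, but they differed widely among themselves. Replicate 3 was the highest and replicate 1 the lowest, at 253 and 31 counts, and the highest E64d value was 6.55 times the lowest. In DMSO, with 574 to 925 counts, that ratio was 1.49. The group means were 3.64 ± 2.38 CPM in E64d and 21.1 ± 4.13 CPM in DMSO (SD, n = 4 each), with a log2 fold change of −2.52 ± 0.38 (SE).

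For dao.1 the E64d replicates 1 to 4 gave 11.6, 33.4, 29.1 and 47.5 CPM, against 154, 249, 150 and 174 CPM in DMSO replicates 1 to 4. The groups did not overlap, with E64d replicate 1 lowest and DMSO replicate 2 highest of all. Counts ran between 358 and 1448 in E64d and between 4880 and 8542 in DMSO. Mean levels were 30.4 ± 14.8 CPM in E64d and 182 ± 45.99 CPM in DMSO (SD, n = 4 each). The log2 fold change was −2.58 ± 0.32 (SE), which left 16.7% of the DMSO level.

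**Figure D1:**
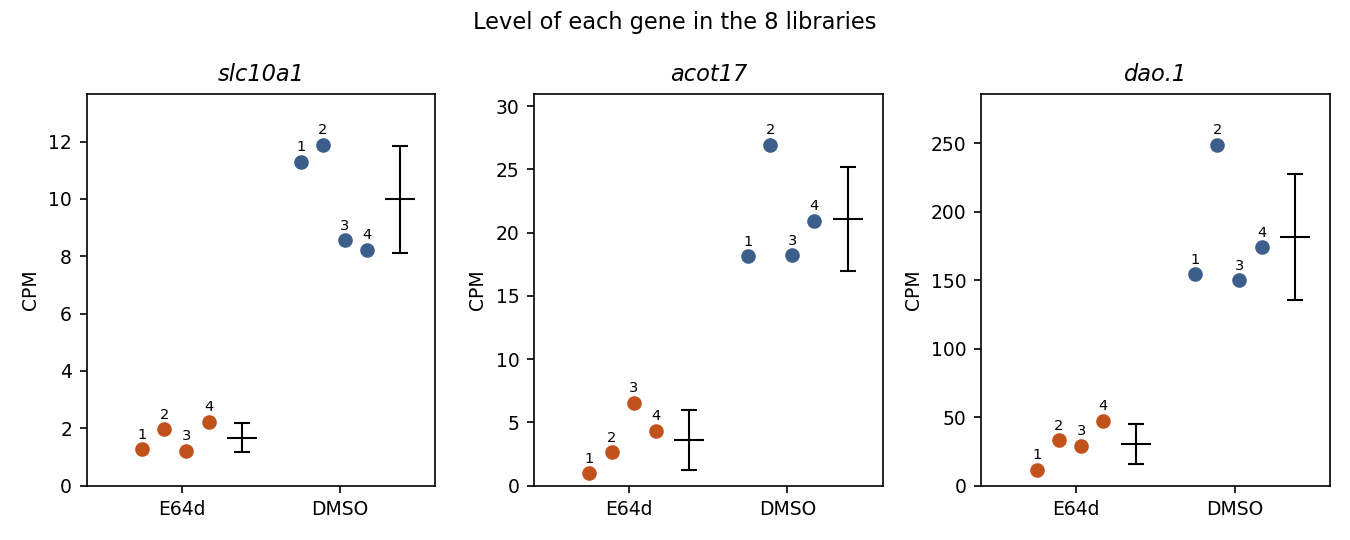
Level of slc10a1, acot17 and dao.1 in CPM (vertical axis, each panel on its own scale that starts at 0) in the 4 E64d and 4 DMSO libraries. Points are libraries numbered by replicate and the bars beside them are the mean ± SD. In every panel the E64d points lie below the DMSO points, and E64d replicate 1 is the lowest point for acot17 and dao.1.

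Across the series, 6.13% of tested genes were called, meaning that they passed an adjusted p under 0.05 in edgeR's quasi-likelihood test, 2.28% higher and 3.85% lower in E64d. With the replicate number as a block in the fit, 11.6% were called, 4.69% higher and 6.95% lower. The values of the 2 groups did not overlap in 14.4% of tested genes, and in 8.55% with E64d below DMSO. By size of log2 fold change, slc10a1, dao.1 and acot17 would stand at places 11, 12 and 13 from the steepest of the called falls. They were chosen as steep falls, so that place is neither a test nor a separate finding. Scaling by library totals alone, without the TMM factors that correct for composition, gave 61.7% of the called genes as higher, against 37.2% with TMM, and shifted the median log2 fold change of all genes to 0.10. On that scaling the log2 fold changes were −2.49 for slc10a1, −2.43 for acot17 and −2.49 for dao.1.

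The size of the fall differed between libraries of the same number. In pairs 1 to 4, the log2 ratio of E64d to DMSO was −3.16, −2.60, −2.81 and −1.88 for slc10a1. For acot17 it was −4.18, −3.34, −1.47 and −2.27, and for dao.1 −3.74, −2.90, −2.36 and −1.87. Pair 1 held the largest fall of each gene. Pair 4 held the smallest for slc10a1 and dao.1, and pair 3 for acot17. Without E64d replicate 1 the log2 fold changes were −2.48 for slc10a1, −2.21 for acot17 and −2.31 for dao.1. Leaving out DMSO replicate 2 gave −2.49 for slc10a1, −2.37 for acot17 and −2.39 for dao.1.

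The 3 genes were not equally steady between pools. The biological coefficient of variation, the fitted spread between pools beyond counting error, was 21.97% for slc10a1, against 22.1% expected at its abundance. For acot17 it was 37.1% against 16.1%, and for dao.1 30.1% against 10.4%. A ratio of fitted to expected spread lower than that of acot17 was found in 99.3% of tested genes, and one lower than that of dao.1 in 99.7%. In slc10a1 the share was 68.8%. The coefficient of variation of the CPM values, which includes counting error, was larger in E64d for all 3. Counts were lower in E64d, so counting error weighs more there, and its part in the difference was not tested. It was 30.3% in E64d and 18.7% in DMSO for slc10a1, 65.3% in E64d and 19.6% in DMSO for acot17, and 48.7% in E64d and 25.3% in DMSO for dao.1.

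The log2 fold changes of related genes lay nearer to 0 than those of the chosen genes. The chosen genes were picked for their steep falls, so this contrast follows largely from the choice and is no separate finding. The values of the related genes are given as a description. In the slc10a family, slc10a3, slc10a4 and slc10a7 had log2 fold changes of 0.06 ± 0.14, 0.16 ± 0.21 and 0.19 ± 0.13 (SE), and none passed the test (adjusted p = 0.878, 0.757 and 0.475, edgeR). slc10a2, which encodes the intestinal bile acid carrier in mammals, had at most 4 counts in any E64d library and at most 6 in any DMSO library and was not tested.

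Among the other acyl-CoA thioesterase genes, acot14 alone was called, at 41.0 ± 3.78 CPM in E64d and 59.1 ± 13.3 CPM in DMSO (SD, n = 4 each). Its log2 fold change was −0.53 ± 0.14 (SE, adjusted p = 0.0478, edgeR). The groups of acot14 overlapped, and the call was lost in 11 of 15 alternative fits, with an adjusted p of up to 0.161 without E64d replicate 4. Leaving out any library but DMSO replicate 3 ended it. acot15, acot16, acot18 and acot20 had log2 fold changes between −1.04 and −0.29, and none passed (adjusted p = 0.0658, 0.251, 0.362 and 0.238, edgeR). Of the rest, acot7 had 9.18 ± 1.47 CPM in E64d and 5.47 ± 2.61 CPM in DMSO (SD, n = 4 each), and did not pass (adjusted p = 0.124, edgeR). With the replicate number as a block, acot15 (adjusted p = 0.0348), acot16 (0.0294) and acot7 (0.0122) passed in edgeR as well. acot11a, acot11b, acot13, acot8, acot9.1 and acot9.2 passed in neither fit, and acot19, acot21 and acot22 were below the count filter.

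The other D-amino acid oxidase genes were dao.2 and dao.3. dao.2 was at 14.7 ± 4.40 CPM in E64d and 19.9 ± 4.83 CPM in DMSO (SD, n = 4 each), with overlapping groups. Its log2 fold change of −0.45 ± 0.21 (SE) did not pass without the block (adjusted p = 0.27, edgeR) and passed with it (adjusted p = 0.0118, edgeR). dao.3 had 8 to 23 counts per E64d library and 7 to 55 per DMSO library, and did not pass (adjusted p = 0.527, edgeR).

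Within its group of named copies, dao.1 made up 64.5% ± 10.1 of the counts of the 3 dao genes in E64d, against 89.7% ± 1.91 in DMSO (SD, n = 4 each). acot17 made up 5.15% ± 3.22 of the counts of acot14 to acot18 in E64d, against 18.5% ± 2.60 in DMSO (SD, n = 4 each). Each share is computed from the chosen gene's own counts, so its drop restates the fall that chose the gene. How reads that match several copies were counted is not given in the sources used here, so the split of reads between such copies is uncertain.

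**Figure D2:**
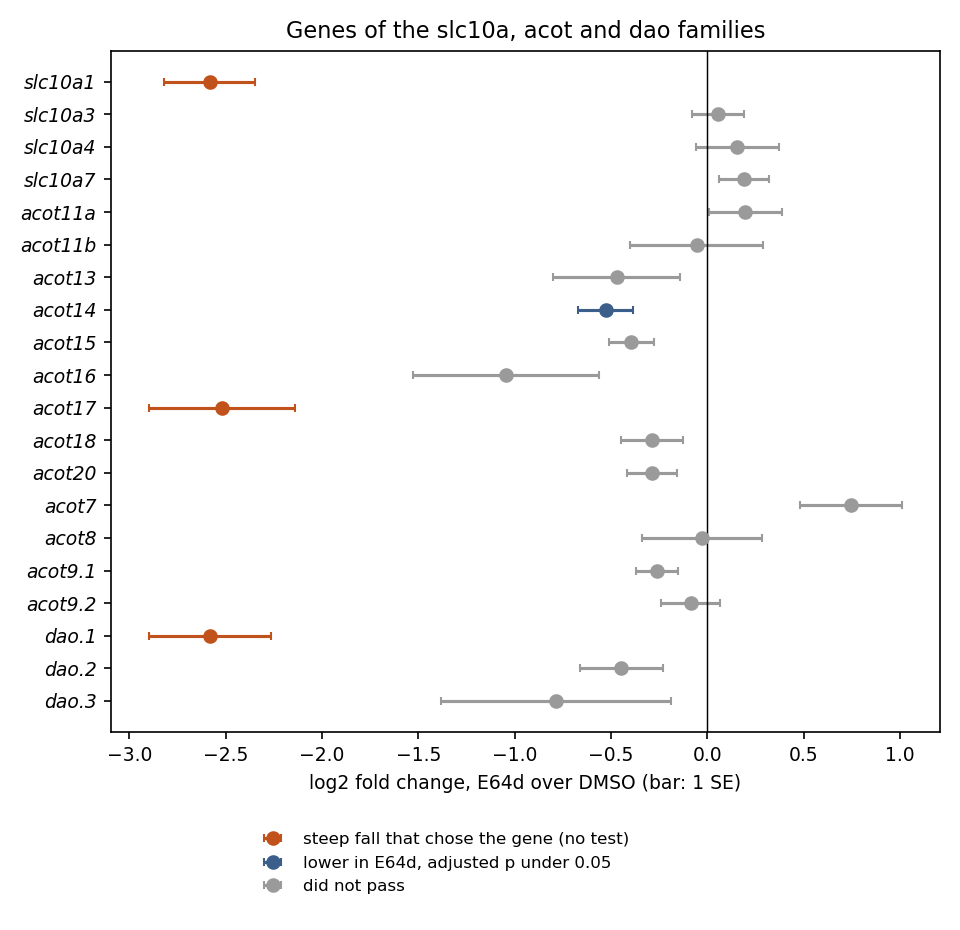
Log2 fold change of E64d over DMSO (horizontal axis, bars 1 SE) for the tested genes of the slc10a, acot and dao families that reach 1 CPM in at least 1 library. The 3 genes, chosen for their steep falls, lie near −2.5. The other genes lie between −1.04 and 0.75, and acot14 alone among them passed the test.

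In the gene order of the RefSeq annotation, dao.1 lies between dao.2 and dao.3, and acot17 lies next to acot18 and near acot14 and acot16. slc10a1 lies 4 places from acot20 and 5 from acot21. The window of 6 protein-coding genes on each side was chosen after the values were seen. It held 36 neighbours, of which 30 were tested. Of these, 1 rose and 1 fell, beside 2.28% higher and 3.85% lower among all genes, and their median log2 fold change was −0.08. The faller was acot14. The riser was isg15, an interferon-induced gene for a protein that resembles ubiquitin, 5 places from dao.1, with 727 to 1536 counts in E64d libraries and 2 to 8 in DMSO libraries. Its log2 fold change of 8.01 ± 0.38 (SE, adjusted p = 1.53e-07, edgeR) is imprecise in size because of the low DMSO counts. With the replicate block, 1 neighbour rose and 4 fell, beside 4.69% higher and 6.95% lower among all genes. The 4 were acot14, acot16, dao.2 next to dao.1, and srsf5b, a splicing factor gene 2 places from slc10a1 (log2 fold change −0.29, adjusted p = 0.0154 with the block and 0.117 without it, edgeR).

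**Figure D3:**
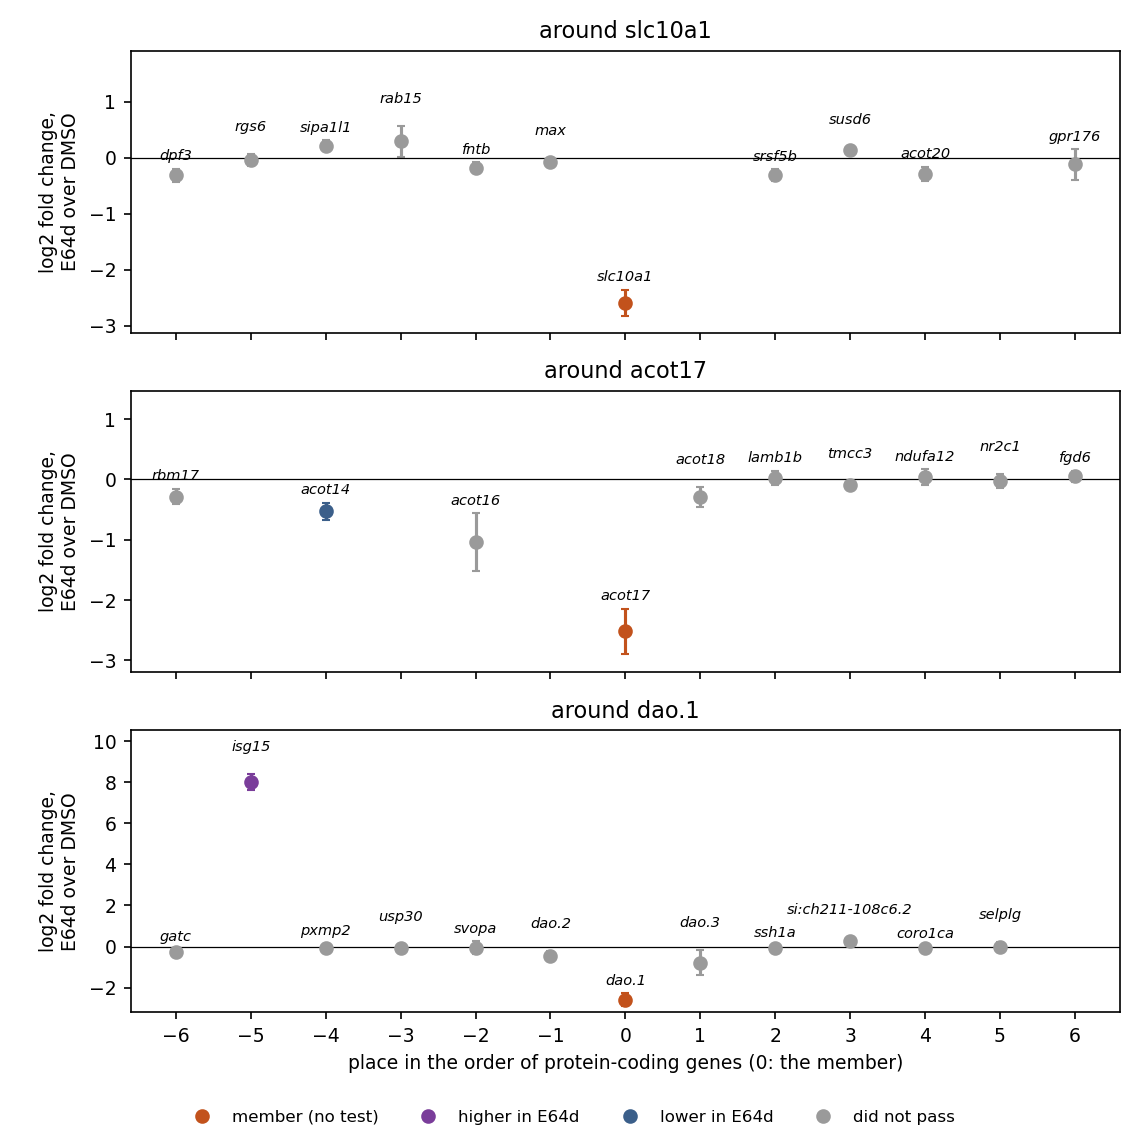
Log2 fold change of E64d over DMSO (vertical axis, bars 1 SE, a scale of its own in each panel) of the genes around slc10a1, acot17 and dao.1 against their place in the gene order (horizontal axis, the named gene at 0). Places without a point had no entry or were below the filter. The 3 genes, chosen for their steep falls, stand at −2.58, −2.52 and −2.58. All neighbours but isg15 at 8.01 and acot14 at −0.53 did not pass in the fit without the replicate block.

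The pathways around the 3 genes were described with 8 gene lists, with the 3 chosen genes left out of the counts. Together the lists held 205 tested genes, of which 11 were called higher and 12 lower in E64d, 11.2% in all, beside 6.13% of all genes. Their median log2 fold change was −0.05, against 0.01 for all genes. The lists were chosen with earlier results of these data known, and that share is a description. For some lists, counts at an unadjusted p under 0.05 are given as well. The share of all genes at that level was not counted, so no excess can be read from them.

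Of 23 tested genes of bile acid transport and sensing, 1 rose (4.35%) and 2 fell (8.70%). Among all genes, 2.28% were higher and 3.85% lower. Across the 23, the median log2 fold change was 0.09. nr0b2a, the counterpart of the small heterodimer partner, which represses bile acid synthesis in mammals, was at 27.8, 27.8, 31.9 and 33.1 CPM in E64d replicates 1 to 4, against 77.0, 103, 96.8 and 95.3 CPM in DMSO replicates 1 to 4. These groups lay far apart (log2 fold change −1.62 ± 0.10 SE, adjusted p = 1.14e-06, edgeR). abcb11a, a bile salt export pump by name, was at 18.4, 28.0, 40.3 and 30.0 CPM in E64d replicates 1 to 4, against 43.3, 72.5, 52.7 and 48.9 CPM in DMSO replicates 1 to 4. Its fall was smaller, with the groups close to each other (log2 fold change −0.90 ± 0.21 SE, adjusted p = 0.0228, edgeR). The call was lost without E64d replicate 2 (adjusted p = 0.0645), E64d replicate 4 (0.075) or DMSO replicate 3 (0.0541). As in dao.1 and acot17, the lowest value of abcb11a was that of E64d replicate 1.

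klb, the beta-Klotho coreceptor of endocrine fibroblast growth factors, rose to 22.3 ± 2.51 CPM in E64d, against 15.4 ± 1.65 CPM in DMSO (SD, n = 4 each; adjusted p = 0.0167, edgeR). The call was lost without any 1 of E64d replicates 2, 3 and 4 or without DMSO replicate 3 (adjusted p = 0.054 to 0.0696). Its receptor partner fgfr4 (log2 fold change 0.09) and the lipid flippase atp8b1 (0.09) did not pass. With the replicate block, 5 genes of this list passed as higher and 2 as lower, beside 4.69% higher and 6.95% lower among all genes. The bile acid receptor nr1h4, the second export pump abcb11b, fgf19 and the receptor gpbar1 were below the count filter.

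Bile acid and bile alcohol synthesis had 21 tested genes, of which 2 fell (9.52%, beside 3.85% of all genes) and none rose (beside 2.28%). At an unadjusted p under 0.05, 1 was higher and 6 were lower. DESeq2 called 3 lower and limma-voom 2, and neither called any higher. slc27a2a, an acyl-CoA synthetase of very long chains that in mammals also activates bile acid precursors, fell to 151 ± 8.22 CPM in E64d, against 216 ± 15.5 CPM in DMSO (SD, n = 4 each; adjusted p = 0.000881, edgeR). hsd17b4, the peroxisomal bifunctional enzyme that shortens side chains, fell to 19.0 ± 2.06 CPM in E64d, against 28.7 ± 5.59 CPM in DMSO (SD, n = 4 each; adjusted p = 0.0223, edgeR). That call was lost without any 1 of E64d replicates 1, 3 and 4 or without DMSO replicate 3 (adjusted p = 0.0599 to 0.0677). The peroxisomal importer abcd3a (log2 fold change −0.14) and the sulfotransferase sult2st1 (0.22) did not pass. cyp7a1, the rate-limiting enzyme of the mammalian pathway, had at most 2 counts in any library of either group. With the replicate block, 4 of the 21 fell, beside 6.95% lower among all genes.

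Among 17 tested acyl-CoA thioesterases beside the chosen one, acot14 alone fell (5.88%) and none rose. The shares over all genes were 3.85% lower and 2.28% higher. The median log2 fold change of the 17 was −0.26. At an unadjusted p under 0.05, 2 were higher and 6 lower, with no share over all genes to set beside these counts. DESeq2 called 1 higher and 2 lower, and limma-voom called none in either direction. With the block, 1 of the 17 rose and 3 fell in edgeR, beside 4.69% higher and 6.95% lower among all genes. The lysosomal enzyme ppt1 did not pass (log2 fold change −0.27, adjusted p = 0.171, edgeR).

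Of 20 tested genes of D-amino acid, glycine and glyoxylate metabolism, 2 fell (10%) and none rose. Among all genes, 3.85% were lower and 2.28% higher. Across the 20, the median log2 fold change was −0.29. Here 1 gene was higher and 7 were lower at an unadjusted p under 0.05. DESeq2 called 3 lower and limma-voom 2, and neither called any higher. Both fallers in edgeR without the block are hydroxyacid oxidases, which like D-amino acid oxidase are peroxisomal flavoenzymes that release hydrogen peroxide. hao1 was at 53.7, 48.6, 65.9 and 57.1 CPM in E64d replicates 1 to 4, against 82.5, 114, 115 and 86.3 CPM in DMSO replicates 1 to 4. The groups did not overlap (log2 fold change −0.82 ± 0.13 SE, adjusted p = 0.00173, edgeR). hao2 fell to 7.31 ± 0.839 CPM in E64d, against 15.1 ± 1.87 CPM in DMSO (SD, n = 4 each; log2 fold change −1.04 ± 0.14 SE, adjusted p = 0.000473, edgeR). The serine hydroxymethyltransferases shmt1 (log2 fold change −0.03) and shmt2 (−0.17) did not pass. The block gave 4 fallers among the 20, beside 6.95% lower among all genes.

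Peroxisomal matrix and membrane enzymes were called in both directions. Of 57 tested, 4 rose (7.02%) and 4 fell (7.02%), beside 2.28% higher and 3.85% lower among all genes. The other 49 were not called, and the median log2 fold change was −0.14. The largest called fall was that of acsl1b, a long-chain acyl-CoA synthetase, at 94.5 ± 14.1 CPM in E64d and 202 ± 9.56 CPM in DMSO (SD, n = 4 each; log2 fold change −1.09 ± 0.10 SE, adjusted p = 2.03e-05, edgeR). slc27a2a and hsd17b4, described above, also belong here, as does hacl1, the hydroxyacyl-CoA lyase of alpha-oxidation, which was called at 14.04 ± 2.35 CPM in E64d and 19.5 ± 1.59 CPM in DMSO (SD, n = 4 each; adjusted p = 0.047, edgeR, lost in 8 of 15 alternatives). With the block, 8 of the 57 fell, beside 6.95% lower among all genes.

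The 4 risers of that list were uraha, a hydrolase of uric acid breakdown, acoxl, an acyl-CoA oxidase-like gene, nudt7, a coenzyme A diphosphatase, and ephx2, an epoxide hydrolase. uraha, listed under the older name urah, rose to 34.2 ± 1.71 CPM in E64d, against 13.05 ± 0.292 CPM in DMSO (SD, n = 4 each; log2 fold change 1.39 ± 0.09 SE, adjusted p = 1.01e-06, edgeR). The log2 fold changes of acoxl, nudt7 and ephx2 were 0.92, 0.95 and 0.47 (adjusted p = 0.00451, 0.00762 and 0.0404, edgeR), and ephx2 lost its call in 6 of 15 alternatives. The dehydrogenase-like hsdl2 (log2 fold change −0.26, adjusted p = 0.0587, edgeR) and the peroxiredoxin prdx5 (−0.19) did not pass.

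Of 20 tested genes of peroxisome assembly, 1 rose (5%) and none fell, beside 2.28% higher and 3.85% lower among all genes. The median log2 fold change was −0.09. At an unadjusted p under 0.05, 2 were higher and 2 lower. DESeq2 and limma-voom each called 1 higher and none lower. The riser was pex11g, a gene of peroxisome division, at 6.19 ± 1.12 CPM in E64d and 3.598 ± 0.294 CPM in DMSO (SD, n = 4 each; adjusted p = 0.0228, edgeR). It was no longer called when E64d replicate 1, E64d replicate 2 or DMSO replicate 4 was left out (adjusted p = 0.0776, 0.0574 and 0.053). pex19, which brings membrane proteins to the peroxisome (log2 fold change −0.08), and the fission enzyme dnm1l (−0.25) did not pass.

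Taurine, a conjugation partner of bile acids, is made out of cysteine. Of 15 tested genes of its synthesis and transport, 2 rose (13.3%) and 3 fell (20%), beside 2.28% and 3.85% of all genes. cdo1, the cysteine dioxygenase that starts the route, was at 29.7, 32.7, 47.9 and 38.7 CPM in E64d replicates 1 to 4, against 110, 98.3, 115 and 104 CPM in DMSO replicates 1 to 4. Every E64d library lay below every DMSO library (log2 fold change −1.52 ± 0.13 SE, adjusted p = 1.33e-05, edgeR), and as for acot17, E64d replicate 1 was lowest and E64d replicate 3 highest of its group. bhmt, which returns homocysteine to methionine, fell to 1380 ± 43.2 CPM in E64d, against 2599 ± 442 CPM in DMSO (SD, n = 4 each; log2 fold change −0.91 ± 0.10 SE, adjusted p = 0.000112, edgeR). Its log2 fold change was −0.78 without DMSO replicate 2, where it was highest. csad, the decarboxylase after cdo1, was called with a log2 fold change of −0.37 (adjusted p = 0.0361, edgeR, lost in 6 of 15 alternatives).

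The risers of the taurine list were cth, which makes cysteine out of cystathionine, and slc6a6b, a taurine transporter. cth rose to 83.3 ± 12.0 CPM in E64d, against 42.4 ± 3.88 CPM in DMSO (SD, n = 4 each; log2 fold change 0.97 ± 0.11 SE, adjusted p = 0.000113, edgeR). slc6a6b was called at a log2 fold change of 0.36 (adjusted p = 0.0497, edgeR, lost in 9 of 15 alternatives). mat1a and cbsb, enzymes of the methionine cycle and of cystathionine synthesis, had log2 fold changes of −0.18 and −0.09 and did not pass.

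Of 41 tested nuclear receptors and liver transcription factors, 3 rose (7.32%) and 1 fell (2.44%), beside 2.28% and 3.85% of all genes. The faller was nr0b2a. The median log2 fold change was 0.13. cebpb, gata6 and foxa3, regulators of liver and endoderm genes, had log2 fold changes of 0.47, 0.41 and 0.44 (adjusted p = 0.00964, 0.0175 and 0.0425, edgeR). foxa3 lost its call in 7 of 15 alternatives, and gata6 when E64d replicate 1, E64d replicate 2 or DMSO replicate 3 was left out (adjusted p = 0.0517, 0.0595 and 0.0609, edgeR). The highly expressed nr2f5 and nr2f2 had log2 fold changes of −0.00 and −0.06 and did not pass. hnf4a, the receptor of the series' subject, was named after its values were seen. It had 4.49 ± 1.80 CPM in E64d and 7.45 ± 1.46 CPM in DMSO (SD, n = 4 each), which did not pass (adjusted p = 0.126, edgeR) and did with the replicate block (adjusted p = 0.00998, edgeR). With the block, 5 of the 41 rose and 3 fell, beside 4.69% higher and 6.95% lower among all genes.

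**Figure D4:**
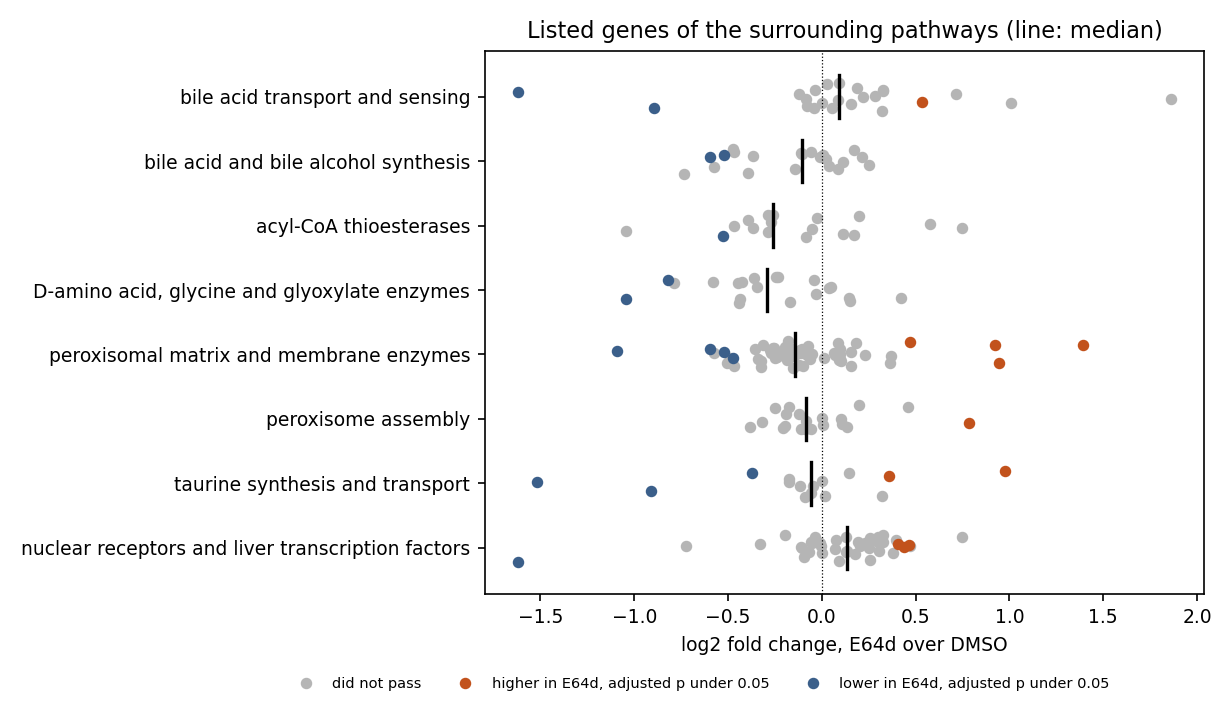
Log2 fold change of E64d over DMSO (horizontal axis) of the tested genes of the 8 lists, without slc10a1, acot17 and dao.1, each point a gene and each vertical line a list's median. Most points are genes that did not pass, and called genes lie on both sides of 0 among the peroxisomal enzymes (4 higher, 4 lower) and the taurine genes (2 higher, 3 lower).

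**Figure D5:**
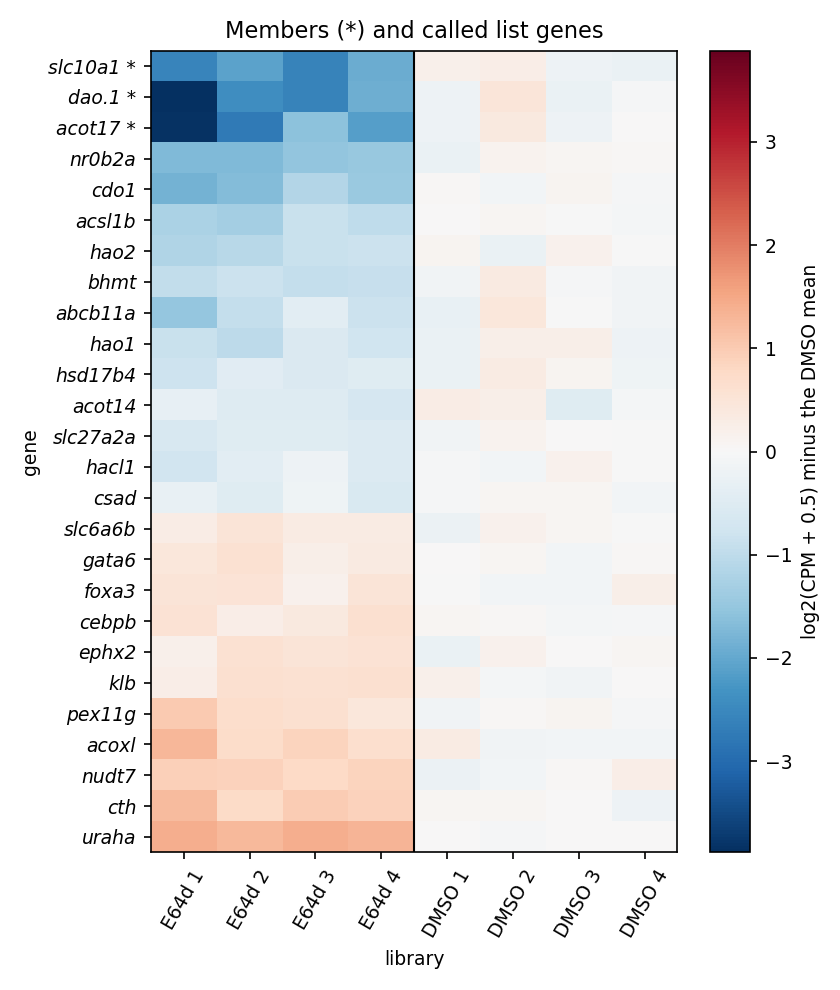
Level of the 3 chosen genes (asterisks) and of each called list gene in the 4 E64d and 4 DMSO libraries, as log2(CPM + 0.5) minus the gene's DMSO mean (colour, blue lower and red higher). The chosen genes form the darkest rows, with the lowest values in E64d replicate 1 for dao.1 and acot17, and the level of slc10a1 is the most even of the 3 across E64d libraries.

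The genes with the most similar pattern were sought by Pearson correlation of log2(CPM + 0.5) over the 8 libraries, among 18861 other genes with a mean of at least 1 CPM. As the libraries form 2 groups, this measure mostly follows the difference between groups. It is a description, since libraries also share depth and pool. Genes that carry only a clone name were passed over when the closest genes were named. Of the remaining genes, those most like slc10a1 were rgrb, tcp1, glula, slc23a3 and acsf2 (r = 0.987 to 0.992). Those most like acot17 were fgb, hypk, gpx4a, ppp1r11 and rnasel3 (r = 0.971 to 0.983), and those most like dao.1 were smc3, mrpl45, plpp6, slc23a3 and ctss2.1 (r = 0.982 to 0.993). Likeness in pattern went with falls of very different size. The log2 fold change was −3.03 for ctss2.1, a cathepsin S gene by name, −2.12 for slc23a3 and −1.19 for glula, a glutamine synthetase, but −0.10 for smc3, a cohesin subunit that did not pass the test (adjusted p = 0.392, edgeR).

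The chosen genes correlated with each other at 0.90 (slc10a1 and acot17), 0.96 (slc10a1 and dao.1) and 0.96 (acot17 and dao.1) over the 8 libraries. They were chosen for the same group difference, so high correlations follow from the choice. Over the 8 libraries, 228 to 389 genes per chosen gene exceeded 0.9. On deviations from the group means, which take the group difference out, the values were 0.20, 0.67 and 0.79 in the same order. With clone names again passed over, the closest other genes were cbr1 for slc10a1 (r = 0.964), cep290 for acot17 (r = 0.993) and gnb1l for dao.1 (r = 0.977). With 8 libraries, 27 to 62 genes per chosen gene exceeded 0.9 on this measure.

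The RNA came from whole embryos, in which fewer cells of a type and less RNA per cell cannot be told apart. Summed levels of marker genes were therefore set beside the results. The 11 hepatocyte markers found in the table summed to 1320 to 1448 CPM in E64d libraries and 2649 to 3215 CPM in DMSO libraries. E64d embryos thus held 49.9% of the DMSO sum (52.4% without DMSO replicate 2). Of the 11 markers, 7 fell, beside 3.85% lower among all genes. Most of the sum was tfa, at 904 ± 51.4 CPM in E64d and 1929 ± 322 CPM in DMSO (SD, n = 4 each). Without tfa, E64d embryos held 56.5% of the DMSO sum. The markers fabp10a and ttr had means of 1.07 and 0.347 CPM in E64d and 0.850 and 0.180 CPM in DMSO. Neither passed, and both were close to the lower limit, so the sum cannot be assigned to hepatocytes. Markers of the yolk syncytial layer, the tissue that takes up yolk, summed to 10745 to 13606 CPM in E64d libraries and 14450 to 17363 CPM in DMSO libraries (78.1%). Of 11 tested, 5 fell, beside 3.85% lower among all genes. The largest part of this sum was apobb.1, which did not pass (adjusted p = 0.14, edgeR, and 0.00377 with the replicate block). Without apobb.1 the sum was at 74.0% of DMSO. The log2 fold changes in this list ran between −2.86 for mttp (adjusted p = 4.30e-08, edgeR) and 1.06 for cdx1b, which did not pass. Intestinal and endoderm markers summed to 357 to 388 CPM in E64d libraries and 432 to 465 CPM in DMSO libraries (82.1%). Of 10 tested, 1 was higher and 1 lower, beside 2.28% higher and 3.85% lower among all genes. The lower intestinal sum came with 1 gene, fabp2, at 193 ± 16.5 CPM in E64d and 280 ± 13.2 CPM in DMSO (SD, n = 4 each). Without fabp2 the sums were 165 to 186 CPM in E64d libraries and 154 to 188 CPM in DMSO libraries. Each of these 3 sums gave p = 0.0286 in a 2-sided exact permutation test, the smallest p that 4 against 4 allows, and 0.0762 after Benjamini-Hochberg adjustment over the 8 marker lists. With library totals alone the yolk syncytial sum gave p = 0.0571 (exact permutation).

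Pronephros markers, for a tissue where D-amino acid oxidase is known in mammals, summed to 514 to 602 CPM in E64d libraries and 530 to 580 CPM in DMSO libraries (exact permutation p = 0.886). The sums for brain, muscle, blood, and macrophages and neutrophils overlapped between the groups as well (exact permutation p = 0.171, 0.429, 0.857 and 0.886). No listed marker found in the table was at 0 in all libraries, and mxtx2, an early gene of the yolk syncytial layer, had at most 2 counts in any E64d library and at most 4 in any DMSO library. fabp10a, a defining gene of differentiated hepatocytes, was close to the lower limit at 1.07 ± 0.304 CPM in E64d and 0.850 ± 0.497 CPM in DMSO (SD, n = 4 each), and did not pass (adjusted p = 0.756, edgeR). The hepatocyte sum was highest in DMSO replicate 2, where acot17, dao.1 and slc10a1 were highest too. The part of cell numbers in the falls of the 3 genes was not tested.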

How the data were processed

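RNA of 8 pools of whole embryos was sequenced; per the labels' protocols, RNA was isolated using TRIzol, and the library kit was VAHTS Universal V8. The deposited values are raw read counts for each gene. Per the submitters' processing notes, FastQC 0.12.1, Trim Galore 0.6.10, STAR 2.7.10b, featureCounts 2.0.6 and the build GRCz11 were used. The sources used here give no annotation, strand setting or rule for multi-mapping reads, so reads of overlapping genes on opposite strands cannot be separated. The table has 6 more columns that name no sample and were left out. In each library 75.9% to 80.7% of counts between 1 and 20 were even, as when both mates of a pair are counted, and counts divided by 2 were tried. SDs measure the spread between pools. Each SE of a log2 fold change comes from the quasi-likelihood fit, which also holds counting error and draws on the spread of other genes.

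The main test was that of edgeR 4.0.16 in R 4.3.3 (filterByExpr, TMM, quasi-likelihood test, Benjamini-Hochberg adjustment over 22163 genes, threshold 0.05). The common biological coefficient of variation was 20.0%. CPM values use TMM-scaled totals. Alternatives were DESeq2 1.42.0, its size factors, limma-voom (limma 3.58.1), library totals alone, no filter, counts divided by 2, a replicate block and each library left out. The edgeR test was checked on simulated data. No 2 libraries of the same group agreed within sampling noise. Groups and replicate numbers came from the titles. Whether the numbers pair libraries was checked on deviations from group means: same-numbered libraries correlated at 0.413, 0.306, 0.332 and 0.122 across genes, others at −0.239 to 0.0890. All 4 exceeded 0.1, so the numbers were treated as pairs in the replicate block. The main fit, its adjusted p and the marker tests used no pairing. The pairing rests on the data, since no label explains the numbers.

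Members and lists were chosen with earlier results of these data known. Named genes were the 3 members, other slc10a, acot and dao genes reaching 1 CPM, the 4 called genes with the smallest p per list and direction, the 2 uncalled genes with the highest mean per list, the 5 genes most like each member (the closest alone for deviations) and fabp10a; any others were named after their values were seen, or are below the filter. Of 275 listed names, 241 matched by name and 11 by synonym in RefSeq's gene table (assembly GRCz12tu, for names and gene order alone); 23 had no match. Promoter and protein sequences were not used here, and the planned motif search was not run.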

Additional observations from a re-analysis of the deposited data

Results flagged for a closer look

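In 11 of 190 groups of 4 libraries among the named genes and marker sums, 1 library lay apart from the other 3 by more than Dixon's 95% limit, about as often as the 1 in 20 that chance gives. None of the 11 was slc10a1, acot17 or dao.1.

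DMSO replicate 2 stood apart in 4 of these groups. The sum of hepatocyte markers was 3215 CPM there, against 2649 to 2718 CPM in the other DMSO libraries. bhmt was at 3253 CPM (others 2328 to 2477), slc10a3 at 53.2 CPM (others 35.1 to 36.5), and abcd3a lower at 29.4 CPM (others 31.2 to 31.5). E64d replicate 1 stood apart in 3 groups. It was low for slc10a4 (4.02 CPM, others 6.86 to 7.27) and klb (18.6 CPM, others 23.2 to 23.8), and high for cbsb (162 CPM, others 131 to 134). E64d replicate 3 was high for ppt1 (24.1 CPM, others 19.7 to 20.02). DMSO replicate 1 was high for acoxl (12.3 CPM, others 8.89 to 9.09), and DMSO replicate 4 was low for acot9.1 (14.3 CPM, others 17.6 to 18.1) and mat1a (162 CPM, others 174 to 177).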

How the results depend on the processing

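The log2 fold changes of slc10a1, acot17 and dao.1 kept their direction in all 15 alternatives and moved by less than the spread between replicates. With 1 library left out they ranged over −2.75 to −2.46 for slc10a1, −2.98 to −2.21 for acot17 and −2.88 to −2.31 for dao.1, and with the replicate block they were −2.59, −2.67 and −2.69. Of the other named genes, 36 of 69 were called, 22 of them in every alternative. The naming rule favours called genes, so the share called follows from the rule and is no finding. Called higher were 826 genes with DESeq2, 803 with library totals alone, 1040 with the replicate block and 288 to 560 with 1 library left out; called lower were 1321, 498, 1540 and 367 to 836. The lowest counts in both directions came without E64d replicate 4 (288 and 367). In bile acid transport and sensing, 2 rose with DESeq2, library totals alone or no filter, 5 with the block and 0 to 2 with 1 library left out, when 1 to 2 fell. In bile acid synthesis 4 fell with the block and 1 to 3 with 1 library left out. Of the thioesterases, 1 rose with DESeq2 or the block and 0 to 1 with 1 library left out; 2 fell with DESeq2, 3 with the block, 0 with DESeq2 size factors, counts divided by 2, library totals alone or limma-voom, and 0 to 1 with 1 library left out. In the D-amino acid list 4 fell with the block. Of the peroxisomal enzymes, 7 fell with DESeq2, 8 with the block and 2 to 5 with 1 library left out. In peroxisome assembly 0 to 1 rose with 1 library left out. Of the taurine genes, 1 rose with DESeq2 size factors or limma-voom and 1 to 2 with 1 library left out. Of the transcription factors, 5 rose with library totals alone or the block and 1 to 3 with 1 library left out; 3 fell with DESeq2 or the block and 1 to 2 with 1 library left out. Apart from these counts and the gene calls given with their blocked p in the results, the replicate block changed no other call of a gene named in the text except that of hsdl2 (adjusted p = 0.0281, edgeR). The sum of yolk syncytial layer markers differed by −2629 CPM with library totals alone (exact permutation p = 0.0571), and that of macrophage and neutrophil markers by 2.03 CPM, the opposite sign. In alternatives chosen after seeing the data, leaving out the gene of the largest difference turned the sums of intestinal markers (5.82 CPM without fabp2, exact permutation p = 0.543) and of macrophage and neutrophil markers (2.61 CPM without lcp1); leaving out DMSO replicate 2 turned those of blood (64.9 CPM) and of macrophage and neutrophil markers (0.859 CPM). Genes with a log2 fold change near 0 changed sign: with library totals alone acot11b was at 0.029, acot8 at 0.056, shmt1 at 0.052, nr2f5 at 0.082 and nr2f2 at 0.027; nr2f5 was at 0.0033 with counts divided by 2 and 0.0040 with no filter. With 1 library left out, slc10a3 ranged over −0.0091 to 0.23, acot11b over −0.30 to 0.13, acot8 over −0.13 to 0.088, shmt1 over −0.076 to 0.0054, pex19 over −0.17 to 0.0054 and nr2f5 over −0.040 to 0.036. With library totals alone, 3 of the 5 genes most like each of slc10a1, acot17 and dao.1 over the 8 libraries stayed among the 5. The causes of these shifts were not tested. Depth limits slc10a1, with 39 to 68 counts per E64d library, and acot17, with 31 to 253.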

Other observations

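Some uncalled or untested genes of the bile acid lists reached higher counts in E64d libraries, and 3 were singled out after their values were seen. nr1h5, a bile acid receptor-like gene, was at 5.70 ± 2.22 CPM in E64d and 2.83 ± 1.097 CPM in DMSO (SD, n = 4 each; log2 fold change 1.01 ± 0.31 SE, adjusted p = 0.0775, edgeR, and 0.00305 with the replicate block). ch25h, a cholesterol hydroxylase, had 6 to 52 counts per E64d library and 0 to 10 per DMSO library and was below the filter. abcb11b had 0 to 40 counts per E64d library and 0 to 4 per DMSO library, also below the filter. No difference was tested for ch25h and abcb11b.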
